A study of Homo sapiens with 11 samples.

Results

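Dickkopf 1 (DKK1), DIX domain containing 1 (DIXDC1) and 8 other genes of the Wnt signalling pathway (DKK3, AXIN1, AXIN2, CTNNB1, TCF7L2, LRP5, LRP6 and FZD6) were followed across 11 RNA-seq libraries of AsPC-1 and PANC-1, established lines of human pancreatic cancer. These 10 genes are 10 of the 58735 gene rows in each count table. DKK1 and DIXDC1 were selected on their measured log2 fold changes, that is on their falls after siRNA against MYEOV, DKK1 in AsPC-1 and DIXDC1 in both lines, so their siRNA values below are a description and carry no test. The other 8 genes were named for their place in the pathway, though with earlier results of these data known. Their calls are thus not independent of the choice. All 10 genes had enough counts to be fitted in every comparison.

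MYEOV (myeloma overexpressed) was lowered with synthetic double-stranded siRNA delivered by lipid transfection, and RNA was taken 48 hours later. The libraries are 2 AsPC-1 controls, 3 AsPC-1 MYEOV siRNA libraries, 3 PANC-1 controls and 3 PANC-1 MYEOV siRNA libraries, all from poly(A) RNA. AsPC-1 was grown in RPMI 1640 and PANC-1 in DMEM, both with fetal bovine serum, so line and medium cannot be told apart in any comparison between lines. The controls are labelled as wild type and untreated, whereas the protocol describes a negative-control siRNA, and a transfection without active siRNA and no transfection cannot be told apart from the labels. The protocol also lists 2 siRNAs against MYEOV, and the labels leave it unclear whether library numbers mark different siRNAs or repeats. No label says that libraries came from separate cultures, so the p-values cover only how far these libraries differ within a group, a spread that may be technical.

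Wnt proteins are secreted ligands that bind Frizzled receptors together with the co-receptors LRP5 and LRP6. Without ligand, a destruction complex built on AXIN1 or AXIN2 and APC marks beta-catenin (CTNNB1) for degradation. With ligand, Dishevelled proteins join the receptors, beta-catenin accumulates, and it activates genes together with TCF/LEF factors such as TCF7L2. AXIN2 and DKK1 are among the known targets of this pathway and feed back on it: AXIN2 rebuilds the destruction complex, and DKK1 is secreted and blocks LRP5 and LRP6.

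Each library held 12113093 to 15066456 counts over genes, with 22050 to 24025 genes detected. Levels are given as CPM, the count of a gene relative to its library's total, scaled by edgeR's TMM factors over all 11 libraries. MYEOV ranged from 128 to 129 CPM in AsPC-1 controls and from 42.5 to 50.4 CPM after siRNA, a mean of 36.4% of control. In PANC-1 it ranged from 65.2 to 75.1 CPM and from 35.9 to 39.9 CPM, a mean of 54.5% of control. All 5 epithelial markers (EPCAM, KRT8, KRT18, KRT19, CDH1) were at 1 CPM or more in every group, with sums of 17906 to 18051 CPM in AsPC-1 controls and 18302 to 18889 CPM after siRNA. Of the fibroblast list of 6 genes, 1 was at 1 CPM or more in AsPC-1, LUM, and the sum was 294 to 307 CPM in AsPC-1 controls and 105 to 109 CPM after siRNA, with DCN, COL1A1, COL1A2, COL3A1 and PDGFRB all under 1 CPM there. In PANC-1 the fibroblast sum was 33.7 to 40.4 CPM in controls and 47.2 to 48.7 CPM after siRNA. The 3 genes VIM, ZEB1 and CDH2, read as a mesenchymal state, summed to 840 to 872 CPM in AsPC-1 controls and 927 to 986 CPM after siRNA, and to 2026 to 2103 CPM and 2086 to 2158 CPM in PANC-1. The PANC-1 epithelial sum was 2264 to 2533 CPM in controls and 1935 to 1968 CPM after siRNA. The part of these marker shifts in the siRNA results was not tested. Of the 5 leukocyte markers CD3E and MS4A1 were at 0 in all 4 groups, and PTPRC and CD68 averaged under 1 CPM in each group. CD14 averaged 2.40 CPM in AsPC-1 controls and 2.19 CPM after siRNA, and 1.04 and 0.91 CPM in PANC-1. The 4 endothelial markers summed to under 1 CPM in every library. PANC-1 control replicate 2 stood farther from its group than any other library, with a chi-square per degree of freedom of 5.97 and 4.87 against its partners, where other pairs of replicates gave 1.67 to 3.69, so no replicate pair looked like 1 library deposited again. Leaving it out left 2 of the 8 genes other than DKK1 and DIXDC1 called in PANC-1, as with it.

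Both genes chosen for their falls had lower counts after siRNA in AsPC-1, and DIXDC1 was also lower in PANC-1. DKK1 (chromosome 10, 52314296 to 52318042, plus strand, GRCh38) stood at 201 and 191 CPM in the 2 AsPC-1 controls and at 89.6, 89.9 and 106 CPM in the 3 siRNA libraries. Every siRNA library was below both controls, and the siRNA mean of 95.1 ± 9.25 CPM (SD, n = 3) was 48.5% of the control mean of 196 ± 6.65 CPM (SD, n = 2). The fitted log2 fold change was -1.07 with a standard error (SE) of 0.05, the 157th lowest of 14304 genes tested in that line. In PANC-1, DKK1 stood at 354, 369 and 358 CPM in controls and at 378, 359 and 392 CPM after siRNA. Those groups overlapped, and the log2 fold change was 0.06 (SE 0.05). The response of DKK1 in PANC-1 was thus 1.11 higher on the log2 scale than in AsPC-1 (SE 0.08), a contrast that the choice of the gene fixed in part.

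DIXDC1 (chromosome 11, 111927144 to 112022584, plus strand) encodes a protein whose DIX domain can bind the same domain of Dishevelled and Axin. In AsPC-1 it stood at 6.37 and 5.70 CPM in controls, from 85 and 65 counts, and at 2.57, 3.67 and 2.31 CPM after siRNA, from 31, 45 and 28 counts. All 3 siRNA libraries were below both controls, with replicate 2 the highest of the 3. In PANC-1 the controls stood at 25.7, 25.7 and 28.5 CPM and the siRNA libraries at 11.4, 10.9 and 12.6 CPM, again with no overlap. The siRNA means were 47.2% of control in AsPC-1 (log2 fold change -1.10, SE 0.20) and 43.7% in PANC-1 (log2 fold change -1.19, SE 0.09). These changes were the 133rd lowest of 14304 genes in AsPC-1 and the 14th lowest of 14929 in PANC-1. Without siRNA replicate 2 the AsPC-1 change was -1.33.

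**Figure D1:**
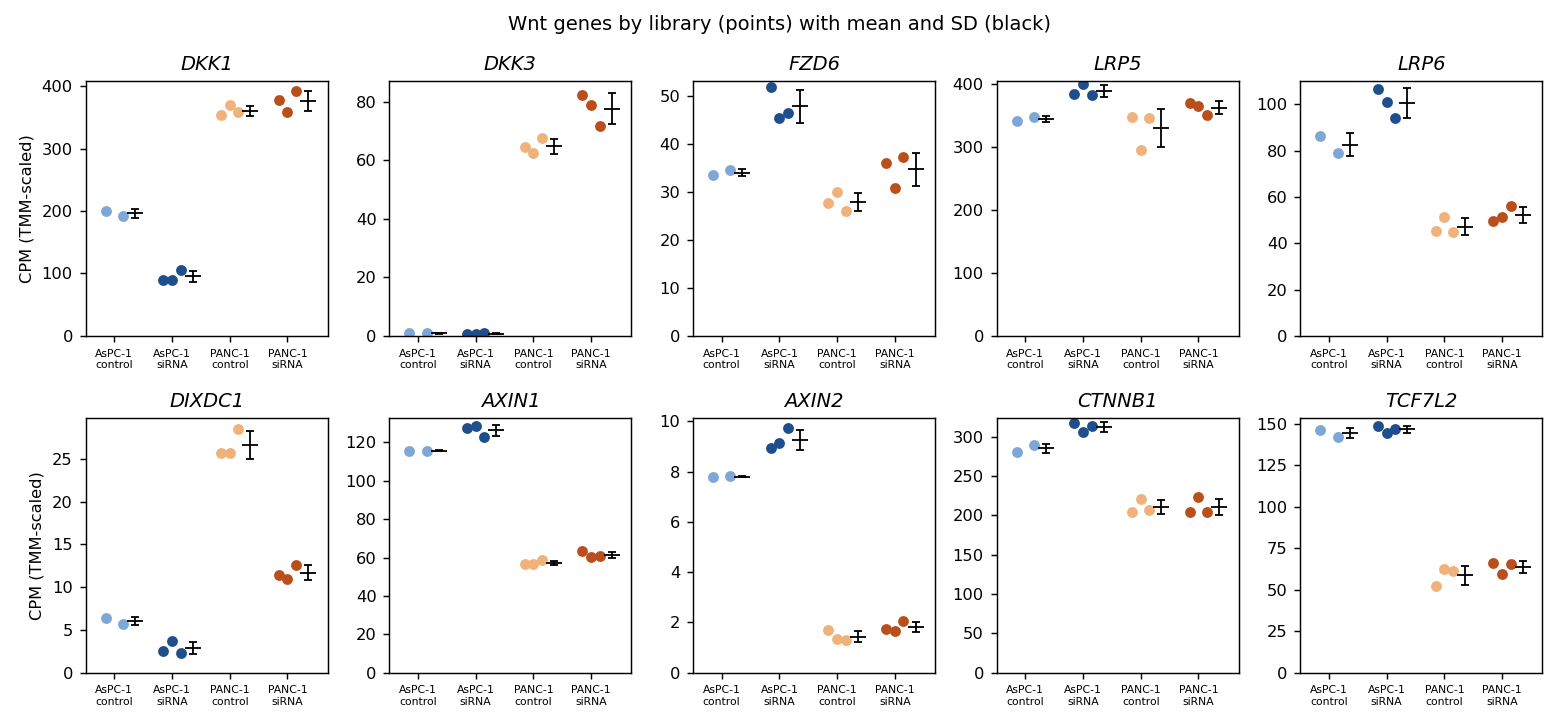
Level of each of the 10 Wnt genes in CPM (vertical axis, from 0, a separate scale for each gene) in the 11 libraries, 1 point per library, with the mean and SD of each group in black. DKK1 lay lower in all 3 AsPC-1 siRNA libraries and overlapped its controls in PANC-1, DIXDC1 lay lower in both lines, and DKK3 was near 0 in AsPC-1.

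In these bulk libraries, fewer cells that express a gene and less RNA per cell cannot be told apart. DKK1 shares 212 exon bases with PRKG1-AS1 on the opposite strand, and the sources used here do not say whether reads were counted by strand. PRKG1-AS1 moved with DKK1 in AsPC-1, from 5.29 ± 0.156 CPM (SD, n = 2) to 2.55 ± 0.440 CPM (SD, n = 3). Its mean was 3.41 ± 0.543 CPM in PANC-1 controls and 2.79 ± 0.383 CPM after siRNA (SD, n = 3 each). With the strand setting unknown, reads of this pair cannot be told apart where they overlap. AXIN2 shares 1316 of its 5226 exon bases with AC004805.1 on its own strand, a gene at 0 counts in all libraries. RNF43, a gene of the Wnt list below, shares 4326 exon bases with AC004687.2 on its own strand. Whether reads from these stretches are missing from the levels of AXIN2 and RNF43 was not tested. Several other listed genes also share exon bases with another gene.

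The transcripts of the chosen pair differ in a 7-base word, CTCATGT, that was frequent in the 3′ UTRs of genes called lower in both lines. The word was searched on the sense strand of the longest annotated 3′ UTR of each gene, and it was known from these data before the search, so its frequency is a description. It stood in 12.9% of the 12510 genes tested in PANC-1 that have a 3′ UTR, in 45.6% of those called lower, in 9.87% of those called higher and in 11.1% of those not called. Among the 23 called lower by more than 2-fold, 18 held it. The shares in AsPC-1 were 12.8% of 11939 genes tested, 26.2% of those called lower, 8.84% of those called higher and 10.3% of those not called. Among the 133 called lower there by more than 2-fold, 68 held it. The shares were not adjusted for length. Median 3′ UTRs in PANC-1 were 1837.5 bases for genes called lower, 1912 for those called higher and 1382 for all tested. In AsPC-1 they were 1571, 1538.5 and 1361 bases. The 3′ UTR of DIXDC1 holds the word at positions 1911 and 2253 of 3548 bases. That of DKK1, shorter at 850 bases, does not hold it, and among the other 8 genes AXIN2 alone does, once. The sites are shown with the word in capitals, for DIXDC1 because it was lower in both lines, for AXIN2 because its groups did not differ past the test, and for DVL3 and CCDC88C because they are the listed Wnt genes with the word that fell in both lines. DVL3 and CCDC88C were singled out after their values were seen. Of the other listed genes with the word, WLS, CXXC4, AMER1 and TNFRSF19 were called lower in AsPC-1 and not called in PANC-1. Called higher were VANGL1 in both lines, RNF43 and EPHB2 in AsPC-1, and SFRP1 in PANC-1. The sites of these genes are not shown.
DIXDC1, first copy (GRCh38 chr11:112020936-112020965, plus strand): gagaaaaagtcCTCATGTcaccaatttctc
DIXDC1, second copy (GRCh38 chr11:112021278-112021307, plus strand): agctcggtaatCTCATGTaccacaggtaat
AXIN2 (GRCh38 chr17:65529164-65529193, minus strand): tgaggctccccCTCATGTagcctccccagg
DVL3 (GRCh38 chr3:184171844-184171873, plus strand): tttctctctcaCTCATGTatgcatacatgc
CCDC88C (GRCh38 chr14:91271640-91271669, minus strand): atatgtacacaCTCATGTgaaatatgtata

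Over all listed Wnt genes tested in AsPC-1 apart from DKK1 and DIXDC1, 6 of the 12 with the word were called lower and 3 higher, against 10 lower and 23 higher of the 71 without it. Over all genes tested there, 556 of the 1534 with the word (36.2%) and 1565 of the 10405 without it were called lower. In PANC-1, 2 of 13 with the word were called lower and 2 higher, against 1 lower and 7 higher of 77 without it. The 15.4% lower among listed genes with the word was near the 19.4% of all 1617 genes with it, and 3.43% of the 10893 genes without it were lower. A match is a description of the sequence, not evidence of a site in use, and the sequences of the transfected siRNAs were not used here.

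Among the 8 genes that were not chosen for a fall, 4 rose in AsPC-1 and none fell: the receptor gene FZD6, the co-receptor genes LRP5 and LRP6, and CTNNB1. The share of all 14304 genes called in that line was 32.9%, with 16.6% called higher and 16.3% lower, by edgeR's quasi-likelihood test at a Benjamini-Hochberg adjusted p under 0.05. In PANC-1, 2 of the 8 rose and none fell, FZD6 and DKK3, against 9.08% of 14929 genes called, 4.16% higher and 4.92% lower. For the 8 genes the median log2 fold change came to 0.13 (AsPC-1) and 0.14 (PANC-1), beside -0.00 over all genes tested in each line. The libraries of the groups did not overlap for 6 of the 8 in AsPC-1, all 6 higher, where 54.6% of all genes tested did not overlap, 29.8% higher and 24.7% lower. In PANC-1 this held for 4 of the 8, all higher, beside 28.3% of all genes, 13.5% higher and 14.8% lower.

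**Figure D2:**
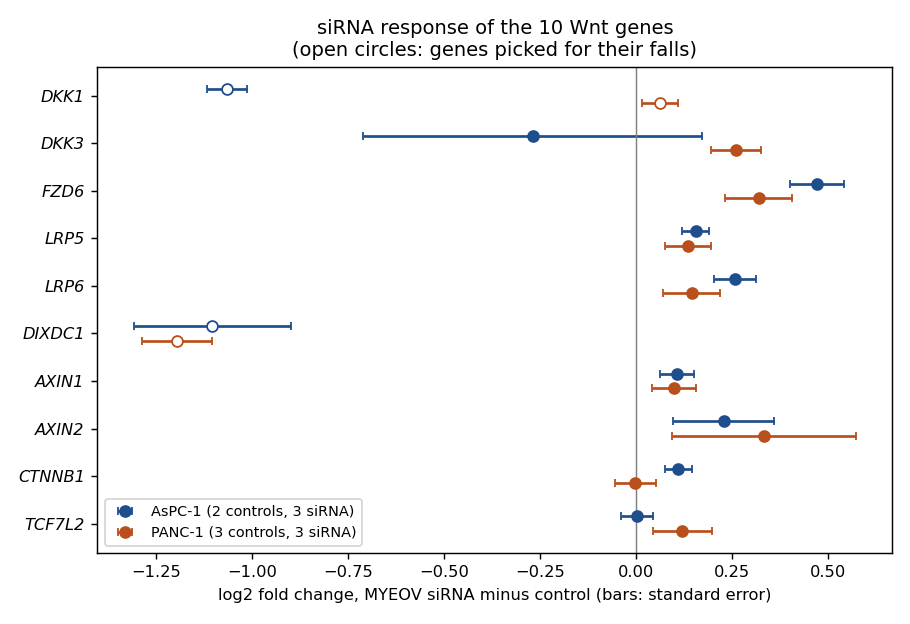
Log2 fold change of MYEOV siRNA minus control (horizontal axis) for the 10 Wnt genes, AsPC-1 in blue and PANC-1 in orange, with bars of 1 SE; open circles mark the 2 genes chosen for their falls. Of the other 8, FZD6 lay highest in AsPC-1 at 0.47, and FZD6 and DKK3 were the 2 that passed the test in PANC-1.

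FZD6 (chromosome 8, 103298433 to 103332866, plus strand), a Frizzled receptor that also acts in planar cell polarity, had the largest rise of the 8 in AsPC-1. It stood at 33.5 and 34.7 CPM in AsPC-1 controls and at 51.9, 45.4 and 46.5 CPM after siRNA. The groups were well apart, with a fold change of 1.39 (log2 0.47, SE 0.07, edgeR adjusted p 1.09e-05). In PANC-1 it stood at 27.7, 29.96 and 26.1 CPM in controls and at 36.2, 30.9 and 37.4 CPM after siRNA. All 3 siRNA libraries were above the controls, replicate 2 only just, which gave an edgeR adjusted p of 0.0366 (log2 fold change 0.32, SE 0.09). That call was lost with 1 library fewer in 4 of 6 cases: edgeR's adjusted p was 0.0927 and 0.142 when control replicate 1 or 3 was dropped, and 0.165 and 0.145 when siRNA replicate 1 or 3 was.

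LRP6 (chromosome 12, 12116025 to 12267012, minus strand) and LRP5 (chromosome 11, 68312609 to 68449275, plus strand) are the paired co-receptors that DKK1 binds. LRP6 stood at 86.2 and 79.2 CPM in AsPC-1 controls and at 107, 101 and 94.1 CPM after siRNA. Its rise was 1.2-fold (log2 0.26, SE 0.05, edgeR adjusted p 0.00058), with every siRNA library above both controls. In PANC-1 it stood at 45.4, 51.4 and 45.0 CPM and at 49.7, 51.2 and 56.0 CPM, groups that overlapped (log2 0.15, SE 0.07, edgeR adjusted p 0.257).

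LRP5 is encoded on the same chromosome arm as MYEOV, 845 kb from it. It stood at 341 and 349 CPM in AsPC-1 controls and at 385, 400 and 383 CPM after siRNA, a rise of 1.11-fold without overlap (log2 0.16, SE 0.03, edgeR adjusted p 0.00101). The PANC-1 controls stood at 349, 295 and 347 CPM and the siRNA libraries at 371, 366 and 352 CPM. The low control was replicate 2, the library that stands apart, and the difference did not pass the test (log2 0.14, SE 0.06, edgeR adjusted p 0.187). The lowest log2 fold change with a PANC-1 library left out was 0.07.

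DKK3 (chromosome 11, 11963106 to 12009769, minus strand), a secreted Dickkopf relative whose action on LRP5 and LRP6 is less settled than that of DKK1, was at 0.825 and 0.878 CPM in AsPC-1 controls, from 11 and 10 counts. It was at 0.498, 0.735 and 0.906 CPM after siRNA there, so no difference was detectable at this depth (log2 -0.27, SE 0.44, edgeR adjusted p 0.689). In PANC-1 it stood at 64.5, 62.5 and 67.5 CPM in controls and at 82.3, 78.8 and 71.8 CPM after siRNA. It rose 1.2-fold without overlap (log2 0.26, SE 0.06, edgeR adjusted p 0.0218). Dropping control replicate 1 ended the call (edgeR adjusted p 0.0585), as did dropping siRNA replicate 1 (0.146) or 2 (0.0717).

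CTNNB1 (chromosome 3, 41194741 to 41260096, plus strand), which encodes beta-catenin, stood at 281 and 289 CPM in AsPC-1 controls and at 317, 306 and 314 CPM after siRNA. The siRNA libraries were all higher, by 1.08-fold (log2 0.11, SE 0.04, edgeR adjusted p 0.0181), and the call was lost without control replicate 1 (adjusted p 0.228) or in 1 fit over all 4 groups (0.0885). In PANC-1 it stood at 204, 221 and 207 CPM and at 205, 223 and 204 CPM, with almost full overlap and an edgeR adjusted p of 0.99 (log2 fold change -0.002, SE 0.05).

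The Axin genes, scaffolds of the destruction complex, did not pass the test in either line. AXIN1 (chromosome 16, 287440 to 352673, minus strand) stood at 116 and 115 CPM in AsPC-1 controls and at 128, 128 and 123 CPM after siRNA (log2 0.11, SE 0.04, edgeR adjusted p 0.0634). Its groups did not overlap, and it passed in edgeR without siRNA replicate 3 (adjusted p 0.0395). In PANC-1 it stood at 56.7, 56.8 and 58.6 CPM and at 63.3, 60.3 and 60.7 CPM, again apart but short of the threshold (log2 0.10, SE 0.06, edgeR adjusted p 0.328).

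AXIN2 (chromosome 17, 65528563 to 65561647, minus strand), the feedback target often read as a gauge of beta-catenin activity, stood at 7.80 and 7.81 CPM in AsPC-1 controls and at 8.96, 9.15 and 9.72 CPM after siRNA. The 3 siRNA libraries were above the controls, on 89 to 118 counts per library, but the difference did not pass the test (log2 0.23, SE 0.13, edgeR adjusted p 0.203). In PANC-1 it was near the lower end of what could be fitted, at 1.70, 1.32 and 1.28 CPM in controls and at 1.73, 1.66 and 2.06 CPM after siRNA (log2 0.33, SE 0.24, edgeR adjusted p 0.447). Those groups overlapped, and the counts of 18 to 28 per library set that wide error.

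TCF7L2 (chromosome 10, 112950250 to 113167678, plus strand), the TCF factor through which beta-catenin activates genes, stood at 146 and 142 CPM in AsPC-1 controls and at 149, 145 and 147 CPM after siRNA. The groups overlapped (log2 0.00, SE 0.04, edgeR adjusted p 0.974). In PANC-1 it stood at 51.9, 62.5 and 61.3 CPM and at 65.8, 59.3 and 65.8 CPM, also with overlap (log2 0.12, SE 0.08, edgeR adjusted p 0.375).

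Whether the siRNA response differed between the lines was tested by the interaction of line and siRNA over all 11 libraries, where edgeR called 4.36% of 16680 genes. None of the 8 genes was called, and 0 of the 8 had an unadjusted p under 0.05. DESeq2 also called 0 of the 8. In simulated data this interaction test recovered 11.9% of log2 differences of 0.3 and 86.6% of those of 0.6. Differences as small as 0.3 would thus mostly be missed. The PANC-1 response of FZD6 minus its AsPC-1 response was -0.17 on the log2 scale (SE 0.12, edgeR adjusted p 0.549). For DKK3 the difference was 0.52 (SE 0.37, edgeR adjusted p 0.588), an error set by its few AsPC-1 counts. So the calls of LRP5, LRP6 and CTNNB1 in AsPC-1 and of DKK3 in PANC-1 were not shown to be particular to a line. For DIXDC1, picked in both lines, the difference was -0.10 (SE 0.22), given with no test.

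Most of these genes differed between the controls of the lines. In PANC-1 controls, 9 of the 10 genes were called against AsPC-1 controls, 3 higher (DKK1, DKK3, DIXDC1) and 6 lower (FZD6, LRP6, AXIN1, AXIN2, CTNNB1, TCF7L2), in a comparison where edgeR called 76.4% of 16182 genes, 40.3% higher and 36.1% lower. The same 9 genes had no overlap between lines, where 83.8% of all genes had none, 45.8% higher and 38.0% lower in PANC-1. Without DKK1 and DIXDC1, whose controls also served in their choice, 7 of 8 were called, 1 higher and 6 lower. Leaving out any 1 of the 5 controls left the count over the 10 genes at 9.

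**Figure D3:**
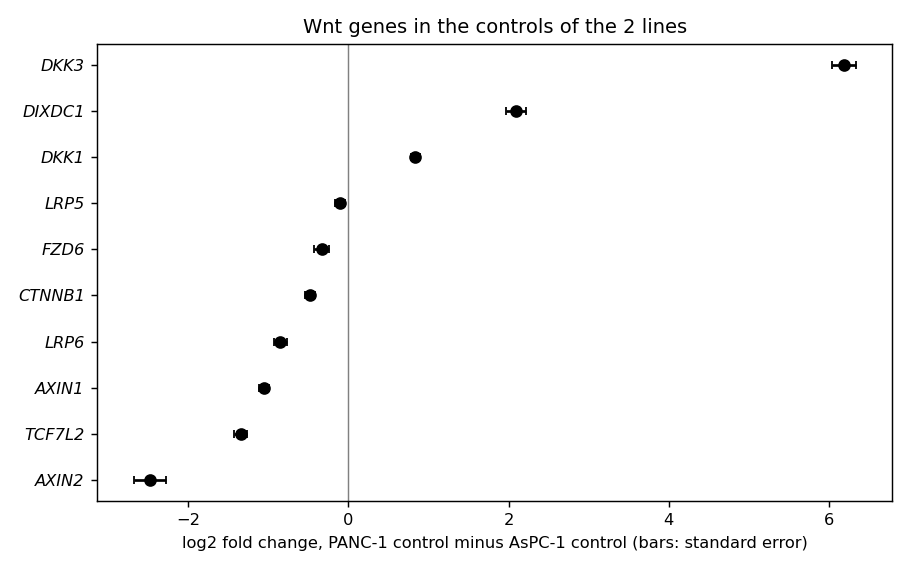
Log2 fold change of PANC-1 control minus AsPC-1 control (horizontal axis) for the 10 Wnt genes, sorted from highest to lowest, with bars of 1 SE. DKK3, DIXDC1 and DKK1 lay higher in PANC-1, LRP5 lay close to 0, and the other 6 lay lower, AXIN2 farthest at -2.48.

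DKK3 differed the most, at 64.8 ± 2.53 CPM (SD, n = 3) in PANC-1 controls and 0.851 ± 0.0374 CPM (SD, n = 2) in AsPC-1 controls, a 73.2-fold difference (log2 6.19, SE 0.15, edgeR adjusted p 1.22e-14). DIXDC1 was 4.26-fold higher in PANC-1 controls (26.6 ± 1.60 against 6.04 ± 0.473 CPM) and DKK1 1.78-fold higher (360 ± 7.57 against 196 ± 6.65 CPM). No p is given for either, for the reason above. After siRNA, DIXDC1 in PANC-1 (11.6 ± 0.874 CPM, SD, n = 3) was still above its level in AsPC-1 controls.

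Both Axin scaffolds, LRP6, FZD6, CTNNB1 and TCF7L2 were lower in PANC-1. AXIN2 was 5.58-fold lower (1.43 ± 0.229 against 7.80 ± 0.00907 CPM, log2 -2.48, SE 0.20, edgeR adjusted p 2.53e-08). TCF7L2 was 2.54-fold lower (log2 -1.35, SE 0.08, edgeR adjusted p 3.96e-10) and AXIN1 2.08-fold lower (log2 -1.06, SE 0.06, edgeR adjusted p 7.19e-10). LRP6 was 1.81-fold lower (log2 -0.85, SE 0.08, edgeR adjusted p 1.45e-07). The smallest of the 6 differences were those of CTNNB1 (log2 -0.48, SE 0.06) and FZD6 (log2 -0.33, SE 0.09). LRP5 did not differ past the test, at 330 ± 30.3 CPM in PANC-1 and 345 ± 5.46 CPM in AsPC-1 controls (log2 -0.11, SE 0.07, edgeR adjusted p 0.163).

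To set levels of different genes side by side, CPM was divided by exon length in kilobases. That length covers all exons annotated for a gene over all its transcripts, 2206 bases for DKK1 and 11927 for CTNNB1. Where the transcripts in use are shorter, the value comes out too low, so the order between genes depends on the annotation. In AsPC-1 controls the order was DKK1 at 88.9 CPM per kb, LRP5 at 55.9, CTNNB1 at 23.9, TCF7L2 at 21.4, AXIN1 at 15.4, FZD6 at 8.39, LRP6 at 8.0, AXIN2 at 1.49, DIXDC1 at 0.710 and DKK3 at 0.168 CPM per kb. FZD6 and LRP6 overlapped between libraries, and all other neighbours were apart. In PANC-1 controls the order was DKK1 at 163 CPM per kb, LRP5 at 53.6, CTNNB1 at 17.7, DKK3 at 12.8, TCF7L2 at 8.70, AXIN1 at 7.66, FZD6 at 6.87, LRP6 at 4.57, DIXDC1 at 3.13 and AXIN2 at 0.274 CPM per kb, with TCF7L2 and AXIN1 overlapping. After siRNA in AsPC-1, DKK1 stood at 43.1 CPM per kb, below LRP5 at 63.2. In PANC-1 siRNA libraries DKK1 stayed first, at 171 CPM per kb.

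The genes whose pattern over the 11 libraries was most like that of DKK1 were DBN1, ATG4A, PARP12, HOXC4 and the pseudogene UQCRFS1P1, among the 10985 genes whose log2 CPM averaged 2 or more. Their root mean square differences from DKK1 were 0.19 to 0.21 on the log2 scale, each gene centred on its own mean. DBN1, for one, averaged 134 CPM in AsPC-1 controls, 88.6 after siRNA, 292 in PANC-1 controls and 278 after siRNA. For DIXDC1 they were GCNT2, ZNHIT6, MORN4, CAP2 and MAGEF1, at 0.25 to 0.36. GCNT2 averaged 19.0 CPM, 9.02, 59.0 and 34.4 CPM in the same order of groups. No gene was as close to DIXDC1 as DBN1 was to DKK1.

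The rest of the pathway was read from a list of 126 Wnt genes in 9 roles, drawn up with earlier results of these data known. DKK1 and DIXDC1 were left out of its siRNA counts. In AsPC-1, 26 listed genes rose and 16 fell of 83 tested, beside 16.6% of all genes higher and 16.3% lower. The median log2 fold change was 0.06, beside -0.00 over all genes. These counts were 14 and 13 without control replicate 1 and 18 and 11 without control replicate 2. In PANC-1, 9 rose and 3 fell of 90 tested, beside 4.16% of all genes higher and 4.92% lower, with a median of 0.04. Leaving out any library but control replicate 2 lowered the PANC-1 counts, to 2 higher and 1 lower without siRNA replicate 1, and without control replicate 2 they were 8 and 6.

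**Figure D4:**
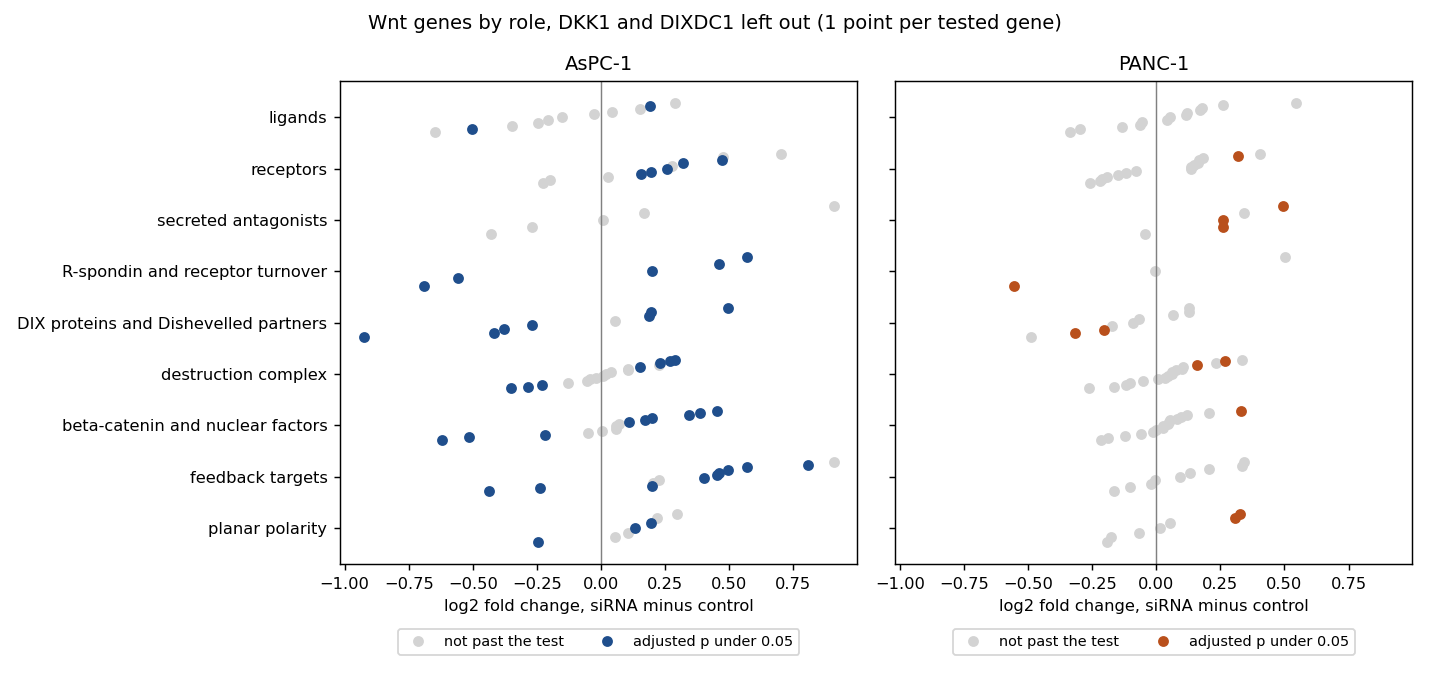
Log2 fold change of MYEOV siRNA minus control (horizontal axis) for every tested Wnt gene on the list, by role (rows), with AsPC-1 left and PANC-1 right; coloured points had an edgeR adjusted p under 0.05, and points within a row are spread vertically only for legibility. In AsPC-1 coloured points lay on both sides of 0 in most roles, and the receptors called in AsPC-1 were all on the higher side.

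Next to LRP5, LRP6 and FZD6, ROR1 and RYK rose among the 11 receptor genes tested in AsPC-1, beside 16.6% of all genes higher and 16.3% lower. None fell with all libraries, and 4 rose and 1 fell without control replicate 1. ROR1, a receptor tyrosine kinase for Wnt5a, averaged 22.1 ± 0.334 CPM (SD, n = 2) in controls and 27.9 ± 2.85 CPM (SD, n = 3) after siRNA (log2 0.32, SE 0.09, edgeR adjusted p 0.00739). Dropping control replicate 1 or siRNA replicate 1 ended its call (edgeR adjusted p 0.0879 and 0.0512). In PANC-1, FZD6 was the 1 receptor called of 15, beside 9.08% of all genes called. PTK7 and FZD2, receptors that were higher in PANC-1 controls, averaged 163 ± 11.2 and 15.1 ± 1.74 CPM there (SD, n = 3) and 0.820 ± 0.205 and 0.420 ± 0.275 CPM in AsPC-1 controls (SD, n = 2).

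Among secreted antagonists and their co-factors, 3 of 5 tested rose in PANC-1: DKK3, SFRP1 and KREMEN2, which encodes a receptor that works with DKK1 against LRP6. The share of all genes called higher there was 4.16%, and 1 of the 5 was called without control replicate 1 or without siRNA replicate 1 or 2. KREMEN2 averaged 20.4 ± 3.04 CPM in PANC-1 controls and 28.8 ± 1.16 CPM after siRNA (SD, n = 3 each, log2 0.49, SE 0.10, edgeR adjusted p 0.0067), a call kept without each library in turn. SFRP1, a soluble Frizzled-like antagonist, rose from 54.9 ± 2.18 to 65.6 ± 3.54 CPM in PANC-1 (SD, n = 3 each, log2 0.26, SE 0.06, edgeR adjusted p 0.0218), and 4 single libraries, when left out, cost it that call. It had 0 counts in both AsPC-1 controls, so its PANC-1 control level was at least 225-fold higher, against a floor of 3 counts per library. In AsPC-1, edgeR called 0 of the 5 antagonists tested beside DKK1, 0 had an unadjusted p under 0.05, and DESeq2 called 0.

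All 5 tested genes of R-spondin signalling and receptor turnover were called in AsPC-1, 3 higher and 2 lower, beside 32.9% of all genes called. LGR4, an R-spondin receptor, fell from 305 ± 3.0 CPM (SD, n = 2) to 191 ± 4.48 CPM (SD, n = 3) in AsPC-1 (log2 -0.69, SE 0.04, edgeR adjusted p 1.22e-13). It also fell in PANC-1, from 201 ± 20.3 to 137 ± 17.1 CPM (SD, n = 3 each, log2 -0.56, SE 0.09, edgeR adjusted p 0.00127). LGR4 is 1 of 10 listed genes lower in AsPC-1, apart from DKK1 and DIXDC1, whose 3′ UTR does not hold the word CTCATGT. Another 6 hold it. ZNRF3, a ubiquitin ligase that removes Frizzled and LRP6 from the membrane, rose in AsPC-1 from 12.2 ± 1.24 to 18.3 ± 1.71 CPM (log2 0.57, SE 0.11, edgeR adjusted p 0.000258). Dropping control replicate 2 ended the AsPC-1 call of LGR5 (edgeR adjusted p 0.0833). LGR5 and LGR6 were at 56.5 ± 1.91 and 288 ± 1.74 CPM in AsPC-1 controls and at 0.0893 ± 0.0360 and 0.108 ± 0.0994 CPM in PANC-1 controls.

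Of the 8 DIX proteins and Dishevelled partners tested beside DIXDC1 in AsPC-1, 3 rose and 4 fell, where 32.9% of all genes were called. Without control replicate 1 the counts were 1 and 3, and without control replicate 2 they were 1 and 4. The fall was largest for CXXC4, an inhibitor that binds Dishevelled, from 10.6 ± 0.148 CPM (SD, n = 2) to 5.65 ± 0.480 CPM (SD, n = 3) (log2 -0.93, SE 0.14, edgeR adjusted p 9.72e-06). CCDC88C, which encodes the Dishevelled-binding protein Daple, fell in AsPC-1 (log2 -0.27, SE 0.06, edgeR adjusted p 0.000724) and in PANC-1 (log2 -0.32, SE 0.07, edgeR adjusted p 0.0108). DVL3, 1 of 3 Dishevelled genes, fell in both as well (log2 -0.42, SE 0.05, edgeR adjusted p 4.12e-07, and log2 -0.20, SE 0.05, edgeR adjusted p 0.0286). In PANC-1, CCDC88C was not called without siRNA replicate 1 or 2, and DVL3 kept its call with 1 of the 6 libraries left out, control replicate 2. NKD1, another Dishevelled-binding feedback inhibitor, rose in AsPC-1 from 8.56 ± 0.436 to 12.2 ± 0.330 CPM (log2 0.50, SE 0.12, edgeR adjusted p 0.0025), short of the threshold without control replicate 1 (0.053). DACT2 stood at 51.2 ± 5.94 CPM in PANC-1 controls and at 0.0439 ± 0.0621 CPM in AsPC-1 controls, and DACT1 at 0.132 ± 0.0593 and 23.8 ± 2.96 CPM.

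The role headed destruction complex also holds casein kinase and tankyrase genes, not all of which encode parts of that complex. In this role, 4 genes rose and 3 fell of 17 tested in AsPC-1, AXIN1 and AXIN2 being among the 10 not called. The share called was 41.2%, beside 32.9% of all genes in that line. Without control replicate 2 the counts were 2 and 2, and without control replicate 1 they were 3 and 2. AMER1, which recruits Axin to the membrane, fell there from 26.4 ± 0.214 to 21.0 ± 1.44 CPM (log2 -0.35, SE 0.09, edgeR adjusted p 0.00226), and the casein kinase gene CSNK1G3 rose (log2 0.29, SE 0.07, edgeR adjusted p 0.00109), a call lost without control replicate 2 (0.0702). In PANC-1, 2 of 17 rose, BTRC, the ubiquitin ligase subunit that recognises marked beta-catenin (log2 0.27, SE 0.06, edgeR adjusted p 0.0183), and CSNK1A1 (log2 0.16, SE 0.05, edgeR adjusted p 0.045). These are 11.8% of the 17, near the 9.08% of all genes called in PANC-1. BTRC was not called without control replicate 3 or without siRNA replicate 1 or 2, and CSNK1A1 not without any 1 of the 6 libraries. Between controls, APC2 was 4.10-fold higher in PANC-1 and TNKS 2.40-fold lower.

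Beside CTNNB1 and TCF7L2, the nuclear genes moved both ways in AsPC-1, with 6 higher and 3 lower of 14 tested, CTNNB1 among the former. Of all genes tested in that line, 16.6% were called higher and 16.3% lower. TCF7L1, a TCF factor that mostly represses, fell from 6.93 ± 0.489 to 4.58 ± 0.597 CPM (log2 -0.62, SE 0.17, edgeR adjusted p 0.00543), and the co-repressor gene TLE2 fell (log2 -0.51, SE 0.19, edgeR adjusted p 0.0445). Dropping control replicate 1 ended the call of TCF7L1 (edgeR adjusted p 0.0815), and dropping any of 3 libraries that of TLE2 (0.479 without control replicate 2). The 6 and 3 became 1 and 2 without control replicate 1, and 5 and 1 without control replicate 2. In PANC-1, CTNNBIP1, which encodes a protein that keeps beta-catenin from TCF, was the 1 of 16 called, and it rose (log2 0.33, SE 0.09, edgeR adjusted p 0.0278), a call lost when any of 4 libraries was left out. The share of all genes called in PANC-1 was 9.08%. Between controls, TCF7L1 was 7.32-fold higher in PANC-1, and PYGO1, at 0 counts in both AsPC-1 controls, was at least 30.5-fold higher against the same floor.

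The role headed feedback targets holds known Wnt targets, not all of which feed back on the pathway. Of 12 tested in AsPC-1 other than DKK1, 7 were higher (LGR5, RNF43, ZNRF3, NKD1, TCF7, CD44, EPHB2) and 2 lower (CCND1, TNFRSF19), beside 16.6% of all genes higher and 16.3% lower, and AXIN2 was among those not called. The median log2 fold change of the 12 was 0.43, beside -0.00 over all genes tested. EPHB2, an ephrin receptor gene, rose from 40.2 ± 1.43 CPM (SD, n = 2) to 71.3 ± 3.74 CPM (SD, n = 3) (log2 0.81, SE 0.06, edgeR adjusted p 1.71e-10). RNF43, a partner of ZNRF3, rose from 11.4 ± 0.805 to 15.8 ± 0.416 CPM in AsPC-1 (log2 0.46, SE 0.11, edgeR adjusted p 0.00174) and stood at 0.111 ± 0.135 CPM in PANC-1 controls. Without control replicate 1 RNF43 was short of the threshold (edgeR adjusted p 0.0549), and the count of 7 was 5. In PANC-1, edgeR called 0 of 9 targets of this role tested, 3 had an unadjusted p under 0.05, and DESeq2 called 0.

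Among 11 ligand genes and their secretion factors tested in AsPC-1, WNT7B rose (log2 0.19, SE 0.04, edgeR adjusted p 0.00144) and WLS, the carrier needed to secrete Wnt proteins, fell from 73.4 ± 2.19 to 52.7 ± 6.60 CPM (log2 -0.50, SE 0.07, edgeR adjusted p 3.54e-06). These 2 calls are 18.2% of the 11, below the 32.9% of all genes called in that line. In PANC-1, edgeR called 0 of 13, beside 9.08% of all genes, 2 had an unadjusted p under 0.05, and DESeq2 called 0. WNT5B and WNT9A averaged 29.2 ± 0.791 and 12.9 ± 1.36 CPM in PANC-1 controls and 0.732 ± 0.0813 and 0.275 ± 0.141 CPM in AsPC-1 controls. Of 7 planar polarity genes tested, 3 were called in AsPC-1 and 2 in PANC-1, beside 32.9% and 9.08% of all genes. VANGL1 rose in both lines (log2 0.20, SE 0.05, edgeR adjusted p 0.00686 in AsPC-1, and log2 0.31, SE 0.06, edgeR adjusted p 0.00497 in PANC-1). CELSR1 rose in AsPC-1 (log2 0.13, edgeR adjusted p 0.0273), a call lost without siRNA replicate 2 (edgeR adjusted p 0.138) and in DESeq2 (adjusted p 0.0915). The AsPC-1 call of VANGL1 was lost without control replicate 1 (edgeR adjusted p 0.0955). The 3′ UTR of VANGL1 holds the word CTCATGT, as 1 of 3 listed genes with it that were called higher in AsPC-1, beside 6 called lower. DAAM1, a formin that works with Dishevelled, rose in PANC-1 only just past the threshold (log2 0.33, SE 0.10, edgeR adjusted p 0.0498), and that call was lost without any 1 of the 6 libraries. PRICKLE3 fell in AsPC-1 (log2 -0.25, SE 0.09, edgeR adjusted p 0.0482), a call also lost without any 1 of the 5 libraries. Between controls, CELSR2 was 6.10-fold higher in PANC-1 and CELSR1 2.00-fold lower.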

How the data were processed

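Whole-number read counts per gene were deposited by the authors, 1 table per library and not normalized, for 11 poly(A) libraries sequenced as paired reads of 150 bases, per the labels' protocols. Per the submitters' processing notes, HISAT2, HTSeq and build hg19 were used, with no versions stated. The strand setting was not given in the sources used here. Names, exon lengths and GRCh38 positions came from GENCODE 29, so positions are not those of the submitters' build. The 10 genes, the Wnt list, the markers and the 3′ UTR word were chosen with earlier results of these data known.

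Counts were fitted per comparison with edgeR 4.0.16 in R 4.3.3 (filterByExpr with a minimum count of 10 and a total of 15, TMM scaling, quasi-likelihood F test, Benjamini-Hochberg adjustment over all genes, threshold 0.05). Each line's siRNA contrast used its own libraries, the line contrast the 5 controls, and the interaction all 11 libraries. SE is the log2 fold change divided by the square root of F. Printed CPM come from TMM factors over all 11 libraries. Besides the 10 genes, the text names, per role and comparison, up to 2 called genes with the largest change and a mean log2 CPM of at least 2; TCF7, APC, CD44, DVL3 and the other genes that make up a count were named after their values were seen. Likeness is the root mean square difference of centred log2 CPM (prior count 2). Some listed genes have 2 roles. The fits were tested on simulated data. The alternatives tried were scaling by RLE or by upper quartile, no filter, a filter at 5 CPM, DESeq2 1.42.0, a replicate block, 1 fit over all groups, and each library left out.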

Additional observations from a re-analysis of the deposited data

Results flagged for a closer look

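Of 98 listed Wnt genes tested, 5 had a siRNA response that differed between the lines by edgeR's interaction test, or 5.10%, which is near the 4.36% of all 16680 genes called, so the count itself says nothing particular about Wnt genes. None of them is among the 10 genes described. Values are the PANC-1 response minus the AsPC-1 response on the log2 scale. EPHB2 differed by -0.69 (SE 0.08, edgeR adjusted p 4.65e-05), with a rise of 0.81 in AsPC-1 and 0.13 in PANC-1, and CD44 by -0.32 (SE 0.06, edgeR adjusted p 0.00213), with 0.40 and 0.09. Both were called in each of the 11 fits that left out 1 library. APC differed by -0.40 (SE 0.10, edgeR adjusted p 0.0219), with 0.27 in AsPC-1 and -0.12 in PANC-1. TCF7L1 differed by 0.66 (SE 0.17, edgeR adjusted p 0.0281), with -0.62 and 0.05, and WLS by 0.43 (SE 0.11, edgeR adjusted p 0.0303), with -0.50 and -0.06. APC and TCF7L1 each lost the call in 5 of the 11 fits that left out 1 library, and WLS in 6. Either AsPC-1 control left out cost all 3 their call, with edgeR adjusted p of 0.0503 and 0.155 for APC, 0.217 and 0.0729 for TCF7L1, and 0.171 and 0.0881 for WLS. The causes were not tested.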

How the results depend on the processing

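No called result changed direction under any alternative. Some values that were not called did change sign, as TLE2 in PANC-1, from -0.22 to 0.02 without control replicate 3, and the difference in response of DIXDC1, which had no test, from -0.10 to 0.12 without AsPC-1 siRNA replicate 2. Of 108 recomputed counts, 94 stayed within 1.5 times the value with all settings as reported. With 1 library left out, the genes called ranged from 3164 to 4393 in AsPC-1 (4709 with all), 538 to 1712 in PANC-1 (1356 with all), 11096 to 12587 between controls (12370 with all) and 305 to 1056 for the interaction (727 with all). The lowest PANC-1 count was without siRNA replicate 1, and the lowest interaction count without AsPC-1 control replicate 1. Of the 8 genes not chosen for a fall, 3 to 5 were called in AsPC-1, 0 to 2 in PANC-1 and 0 in the interaction, and of all 10, 9 between controls. The PANC-1 count of those 8 was 0 without control replicate 1 or siRNA replicate 1. DESeq2 called 3170, 1149, 11333 and 674 genes in the same order of comparisons. With library numbers as a replicate block, PANC-1 had 628 genes called and 0 of the 8, FZD6 and DKK3 having adjusted p of 0.121 and 0.0819, and the interaction had 241. The numbers did not pair libraries: same-numbered residuals correlated at -0.04 and -0.02 in AsPC-1 and from -0.39 to 0.01 in PANC-1, and 0 of 2 and 0 of 3 controls correlated best with their own number. Causes of these shifts were not tested. Low genes such as DKK3 in AsPC-1 have no value under the filter at 5 CPM. Fits with 1 AsPC-1 control assume that it varies like the siRNA libraries. Counts limit AXIN2 in PANC-1 and DKK3 in AsPC-1. Among single genes, 109 recomputed calls were lost and 14 gained, and 2372 recomputed values were kept. The kept values include untested siRNA changes of DKK1 and DIXDC1, counted as kept when they stayed within 1 SE. Another 5 changes of these genes moved farther.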
